A study of Mus musculus with 9 samples.

Results

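The DNA replication machinery was followed here as 40 genes that license origins, unwind DNA and copy it, taken by symbol from a table of 48709 genes. All 40 were found, and all 40 had a mean of at least 1 TPM in some group and so were among the 11971 genes tested. TPM expresses a gene's transcripts, corrected for their length, relative to 1000000 transcripts of the library. RNA came from 9 libraries of mouse CD8+ T cells in 3 groups of 3: OVA/Citra cells had OVA peptide and citraconate, OVA cells had OVA peptide without citraconate, and CTRL cells had no peptide. The peptide comes from chicken ovalbumin, a standard test antigen for T cells, and citraconate is an unsaturated dicarboxylic acid. The title of the series is about citraconate, T cell stemness and immunity to tumours. No group is labelled as having citraconate without peptide. The labels give no strain, age, dose or time. In 8 libraries the protocol text speaks of PAS-T cells, a name it does not explain, and in OVA/Citra replicate 1 of OVA-stimulated T cells. Whether the replicates of a group were grown from different animals or cultures is not said, so each p-value reflects the spread over these libraries alone, possibly a technical one.

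Each origin of replication is first bound by the origin recognition complex, which with Cdc6 and Cdt1 loads the ring-shaped MCM helicase onto DNA before S phase. At the start of S phase the kinase Cdc7 with its partner Dbf4, and then Cdc45, the GINS complex and Mcm10, turn the loaded rings into moving forks. Polymerase alpha-primase lays down primers, polymerases epsilon and delta extend them on the sliding clamp PCNA, RPA covers single-stranded DNA, and Fen1 and Lig1 join the fragments of the lagging strand. CD8+ T cells that have met antigen are among the fastest dividing cells of the body, and their replication genes are transcribed around the entry into S phase, many of them under E2F factors. In bulk RNA, fewer cycling cells and less of these mRNAs per cycling cell cannot be told apart.

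Summed over the 40 genes, replication transcripts were most abundant in CTRL cells, lowest in OVA cells and in between in OVA/Citra cells. Together the 40 transcripts came to 3245, 2813 and 3313 TPM in the OVA/Citra libraries, to 2299, 2059 and 2571 TPM in the OVA libraries and to 4260.2, 4029 and 3999 TPM in the CTRL libraries. No 2 of the 3 groups overlapped in this sum, and the exact permutation test gave p = 0.1 for each pair, two-sided, the smallest p that 3 against 3 libraries allow. Between OVA/Citra and OVA cells, 29 of the 40 genes passed as higher and 2 as lower, Orc1 and Orc2 (limma, adjusted p under 0.05), where 59.0% of all tested genes passed, 37.8% higher and 21.2% lower. Against CTRL cells, 2 genes were higher in OVA cells, again Orc1 and Orc2, and 37 were lower, where 71.9% of all tested genes passed, 32.1% higher and 39.8% lower. OVA/Citra cells set against CTRL cells had 1 gene higher, Orc2, and 21 lower, beside 59.4% of all tested genes, 33.1% higher and 26.3% lower. These 3 comparisons share libraries, so they are not separate sets of evidence.

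The size of the changes was moderate. The median log2 change over the 40 genes was 0.45 for OVA/Citra against OVA, where the median of all tested genes was 0.12. For OVA against CTRL it was -0.74, beside -0.08 for all tested genes, and for OVA/Citra against CTRL it was -0.34, beside 0.04. Because the whole distribution of OVA/Citra against OVA was shifted by 0.12, log2 changes of that comparison are given below after subtracting it, and the adjusted p-values come from the fit before subtraction. The replication genes then had a median of 0.33. With each library scaled by its median ratio instead, 26 replication genes were higher and 3 lower in OVA/Citra than in OVA cells. Of all called genes, 4522 were higher and 2543 lower without this scaling, and 3469 were higher and 3596 lower with it. The histograms of log2 change set the 40 genes beside all genes tested.

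**Figure D1:**
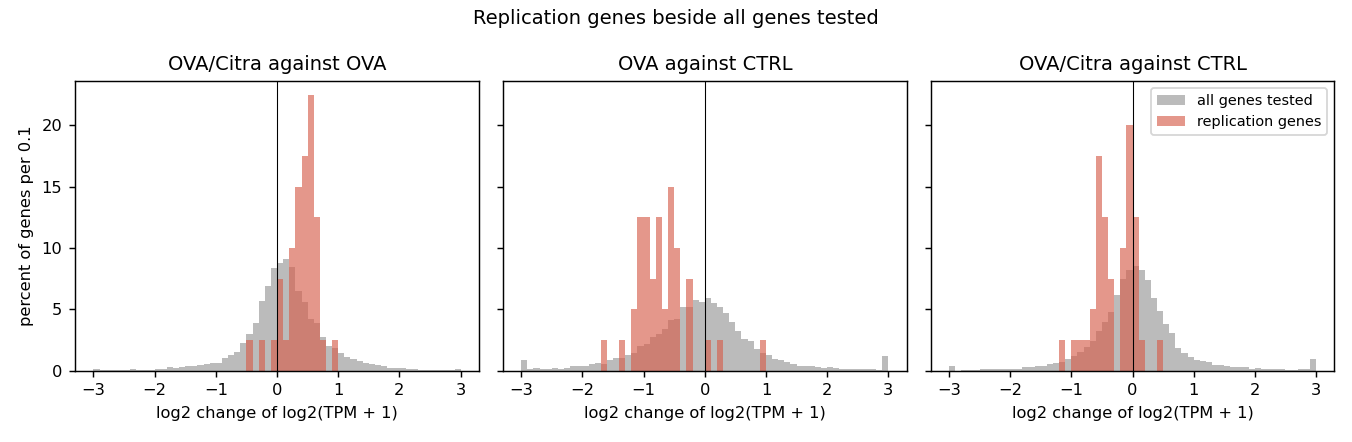
Log2 change of log2(TPM + 1) for the 40 replication genes and for all 11971 genes tested, as percent of genes in bins of 0.1, in OVA/Citra against OVA (left), OVA against CTRL (middle) and OVA/Citra against CTRL (right); values beyond the axis are counted in the outermost bins. The medians of the replication genes are 0.45, -0.74 and -0.34 from left to right, before any subtraction.

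Depth was even, with 14754470 to 17384330 reads assigned to genes per library, and the lowest read number behind any single value of these genes was 91, for Gins3. The T cell receptor chain gene Cd3e averaged 1281 ± 84.5 TPM in OVA/Citra, 513 ± 136 TPM in OVA and 1405 ± 23.0 TPM in CTRL cells (SD, n = 3 each), and Cd8a 325 ± 38.7, 142 ± 37.5 and 217 ± 6.15 TPM, in the same order. Over 15 T cell markers, 14 were higher in OVA/Citra than in OVA cells and 13 were lower in OVA than in CTRL cells. Their summed level was 10983 to 12121 TPM in OVA/Citra, 5765 to 7617 TPM in OVA and 11267 to 11914 TPM in CTRL libraries. Natural killer markers ran the other way: 11 of 12 were lower in OVA/Citra than in OVA cells, and 12 of 12 were higher in OVA than in CTRL cells. They summed to 372 to 601, 1708 to 2690.0 and 16.7 to 19.1 TPM, and Ncr1 among them was at 0 in all CTRL libraries. Whether natural killer cells or the CD8+ T cells expressed these markers was not tested. Of all tested genes, 37.8% were higher and 21.2% lower in OVA/Citra against OVA, and 32.1% and 39.8% in OVA against CTRL. B cell markers summed to 55.3 to 87.9, 58.0 to 88.4 and 225 to 259.9 TPM, CD4 and regulatory T cell markers to 26.7 to 28.3, 21.8 to 23.9 and 61.8 to 70.1 TPM, and myeloid and dendritic markers to 19.8 to 28.6, 25.9 to 30.6 and 14.6 to 18.3 TPM. Erythroid and platelet markers summed to 10.6 to 13.1, 3.47 to 5.28 and 6.72 to 9.22 TPM, and stromal and epithelial markers to 966 to 1092, 1299 to 1328 and 3984 to 4132 TPM. Vim made up most of the stromal sum, at 971 ± 60.9, 1001 ± 53.6 and 3998 ± 76.2 TPM, and T cells also express it. The sum hides genes of this list that rose in OVA cells. Over its 4 tested genes, log2 changes ran from -2.00 to 3.41 in OVA against CTRL. In OVA/Citra against OVA they ran from -2.29 to 0.35 before subtraction. Of the tested genes of these 5 lists (4 B cell, 4 CD4, 4 myeloid, 2 erythroid and 4 stromal), 1, 1, 1, 1 and 0 were higher and 1, 0, 2, 0 and 2 lower in OVA/Citra than in OVA cells, and 1, 0, 2, 0 and 2 were higher and 3, 4, 1, 1 and 2 lower in OVA than in CTRL cells. Whether other cells had a part in the replication values was not tested.

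Within a group, the same library tended to be low or high for most replication genes. OVA/Citra replicate 2 was the lowest of its group for 36 of the 40 genes, and OVA replicate 2 was the lowest of its group for 36 of 40. OVA replicate 3 was the highest OVA library for 35 of 40. Granzyme transcripts took 4.87% of OVA/Citra replicate 2, against 3.22% and 3.30% in the other OVA/Citra libraries, and 9.54% of OVA replicate 2, against 8.38% and 7.66% in the other OVA libraries. In CTRL libraries they took 0.876% to 1.09%. With granzyme genes left out of the total, 28 genes were higher and 2 lower in OVA/Citra than in OVA cells, and 2 were higher and 33 lower in OVA than in CTRL cells. Without OVA/Citra replicate 2 and OVA replicate 2, an alternative added after seeing the data, 30 were higher and 1 lower in OVA/Citra than in OVA cells, and 1 was higher and 35 lower in OVA than in CTRL cells. The median coefficient of variation over the 40 genes was 8.51% in OVA/Citra, 12.6% in OVA and 5.12% in CTRL libraries.

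**Figure D2:**
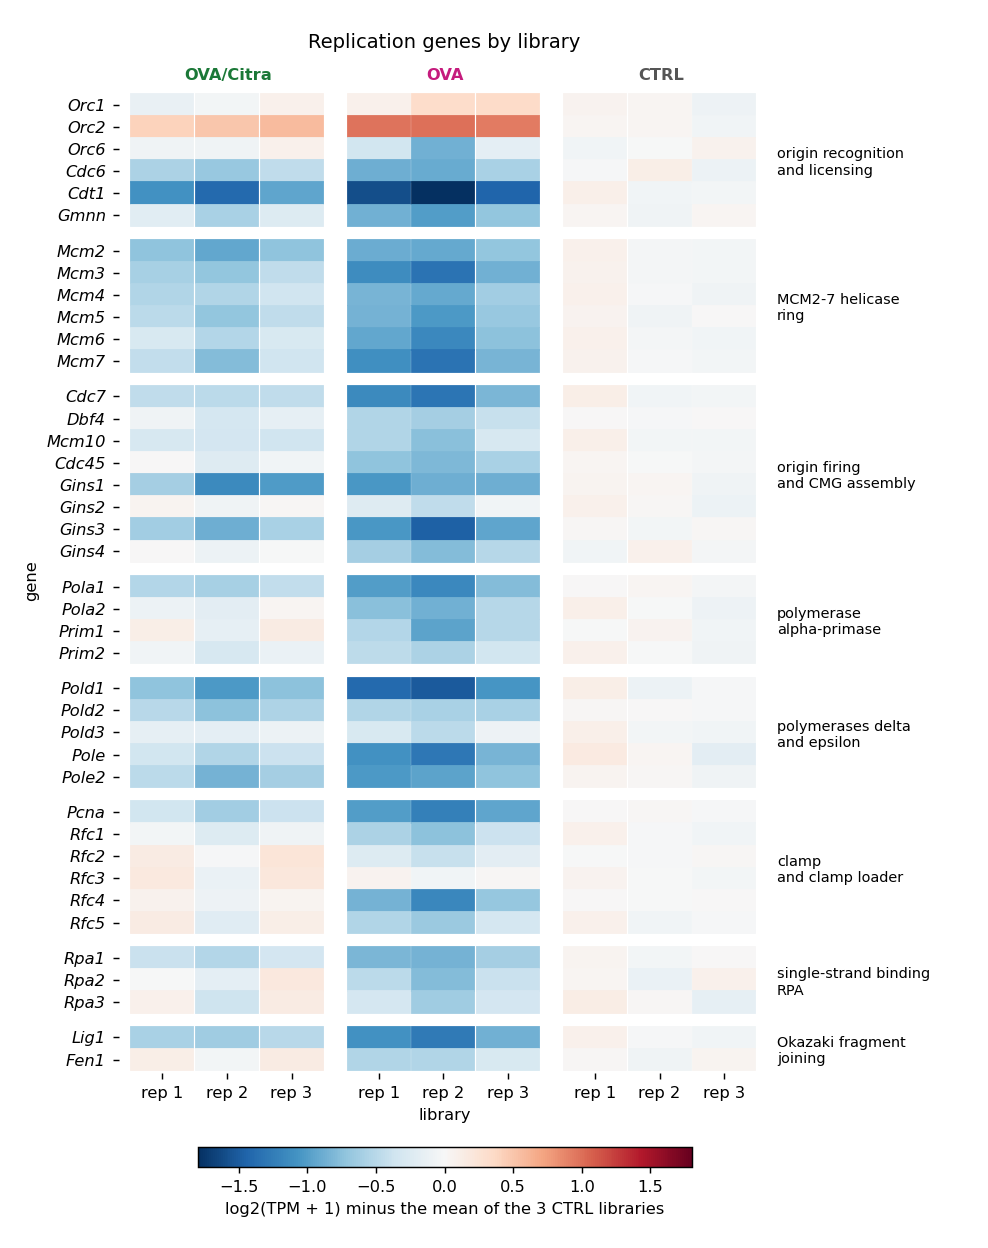
Level of each replication gene (rows, grouped by role) in each library (columns, OVA/Citra left, OVA middle, CTRL right), as log2(TPM + 1) minus the mean of the 3 CTRL libraries; blue is lower and red is higher than CTRL. For most genes the OVA columns are the bluest, whereas Orc1 and Orc2 are red there and Rfc3 is close to 0.

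Promoters are shown for genes with large and with small changes between OVA/Citra and OVA cells, because E2F sites are known in the promoters of many replication genes. Sequences are from RefSeq on build GRCm38.p6, matched by symbol for 32 of the 40 genes. Each is the stretch of 250 bases before the gene start, written 5′ to 3′ on the gene's strand, and capitals mark E2F words (TTTCCCGC, TTTGGCGC, TTTCGCGC or TTTGCCGC on either strand, overlaps allowed) and CCAAT on either strand. Before the median of all genes is subtracted, Rfc4 and Prim1 rank among the 3 largest changes between OVA/Citra and OVA cells, and Mcm2 and Pold2 among the 3 smallest (Pole and Gins1 complete these sets). After subtraction the 3 largest are Rfc4, Orc2 and Prim1, and the 3 smallest are Pold3, Rfc3 and Mcm10, as 0.02, -0.04 and 0.08. Mcm6, Orc1 and Orc2 were added after their values were seen. The windows are chr16:23127731-23127980, minus strand for Rfc4, chr10:128014965-128015214, plus strand for Prim1, chr1:128359706-128359955, minus strand for Mcm6, chr6:88898781-88899030, minus strand for Mcm2, chr11:5878257-5878506, minus strand for Pold2, chr4:108579204-108579453, plus strand for Orc1 and chr1:58505110-58505359, minus strand for Orc2.
Rfc4: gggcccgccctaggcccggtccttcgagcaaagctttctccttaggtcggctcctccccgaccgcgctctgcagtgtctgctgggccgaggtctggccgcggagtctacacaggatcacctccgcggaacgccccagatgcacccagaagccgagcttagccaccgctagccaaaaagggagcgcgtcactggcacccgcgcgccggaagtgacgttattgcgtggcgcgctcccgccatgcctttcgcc
Prim1: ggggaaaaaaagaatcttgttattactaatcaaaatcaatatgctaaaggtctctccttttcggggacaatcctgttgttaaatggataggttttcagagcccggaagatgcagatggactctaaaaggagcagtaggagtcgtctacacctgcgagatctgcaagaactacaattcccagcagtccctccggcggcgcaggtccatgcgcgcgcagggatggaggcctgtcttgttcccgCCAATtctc
Mcm6: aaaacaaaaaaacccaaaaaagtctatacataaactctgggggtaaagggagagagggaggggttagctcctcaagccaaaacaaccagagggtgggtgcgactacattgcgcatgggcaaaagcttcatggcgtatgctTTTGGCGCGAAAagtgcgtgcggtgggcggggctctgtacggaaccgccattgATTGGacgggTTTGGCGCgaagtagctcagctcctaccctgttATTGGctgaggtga
Mcm2: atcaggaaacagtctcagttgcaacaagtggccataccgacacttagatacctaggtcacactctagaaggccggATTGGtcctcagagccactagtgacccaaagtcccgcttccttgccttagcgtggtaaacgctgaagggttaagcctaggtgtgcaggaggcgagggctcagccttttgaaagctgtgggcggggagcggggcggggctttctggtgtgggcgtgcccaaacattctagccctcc
Pold2: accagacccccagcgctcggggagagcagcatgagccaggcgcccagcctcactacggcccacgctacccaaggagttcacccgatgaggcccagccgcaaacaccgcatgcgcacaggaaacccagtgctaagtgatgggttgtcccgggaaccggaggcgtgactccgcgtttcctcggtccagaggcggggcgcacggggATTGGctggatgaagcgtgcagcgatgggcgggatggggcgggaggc
Orc1: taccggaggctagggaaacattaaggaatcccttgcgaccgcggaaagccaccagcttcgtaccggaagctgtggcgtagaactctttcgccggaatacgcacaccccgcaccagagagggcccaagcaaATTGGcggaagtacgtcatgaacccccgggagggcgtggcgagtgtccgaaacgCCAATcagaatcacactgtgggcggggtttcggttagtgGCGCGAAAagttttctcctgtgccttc
Orc2: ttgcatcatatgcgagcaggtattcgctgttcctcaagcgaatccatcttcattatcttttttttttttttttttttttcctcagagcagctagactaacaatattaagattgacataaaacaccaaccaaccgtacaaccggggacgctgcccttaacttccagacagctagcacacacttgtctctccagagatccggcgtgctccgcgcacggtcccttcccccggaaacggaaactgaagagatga
Mcm6 holds 2 forward E2F words and 1 reverse word that overlaps the first of them, the nearest beginning 47 bases before the start. Orc1 holds 1 reverse E2F word, 27 bases before its start. The windows of Prim1, Mcm2 and Pold2 hold CCAAT without an E2F word. For Rfc4, and for Orc2 at the upstream of its 2 listed starts, none of these letters are in the window. The other Orc2 start has CCAAT on the reverse strand, 45 bases before it, and the window of the other listed Pold2 start holds none of the words.

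Over the window of 300 bases that also takes in the first 50 bases of the gene, 14 of the 32 replication genes held an E2F word (43.8%, exact 95% interval 26.4% to 62.3%), against 4.92% of 8896 tested genes and 2.60% of all 27025 genes with a promoter sequence. CCAAT was found in 20 of 32 (62.5%, 43.7% to 78.9%), against 43.3% of tested genes. The interval covers counting error only. Before the start alone, the share with an E2F word was 25.0%. The 14 genes were Orc1, Cdc6, Cdt1, Mcm3, Mcm5, Mcm6, Mcm7, Gins3, Pola1, Pold1, Pold3, Pole2, Rfc3 and Lig1. Of these 14, 12 were lower and 1 higher in OVA than in CTRL cells (median log2 change -0.96). Of the 18 genes without a word, 17 were lower and 1 higher (median -0.57). In OVA/Citra against OVA cells, 9 of the 14 were higher and 1 lower (median 0.34 after subtraction), and 14 of the 18 were higher and 1 lower (median 0.36). In OVA/Citra against CTRL cells, 11 of the 14 were lower, and 6 of the 18, where 26.3% of all tested genes were lower. Of all tested genes, 39.8% were lower and 32.1% higher in OVA against CTRL. In OVA/Citra against OVA, 37.8% were higher and 21.2% lower. The counts of genes with and without a word describe the letters in 1 window and carry no test.

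Among the 6 origin recognition and licensing genes, Orc1 and Orc2 went against the rest. Orc2, a subunit of the origin recognition complex, stood at 30.8, 32.8 and 34.4 TPM in OVA/Citra libraries, at 46.0, 46.6 and 44.6 TPM in OVA libraries and at 23.4, 23.4 and 21.9 TPM in CTRL libraries. All OVA libraries were above all OVA/Citra libraries, which were above all CTRL libraries. The log2 change was -0.60 for OVA/Citra against OVA (95% interval -0.73 to -0.46, limma adjusted p = 0.000121), 0.97 for OVA against CTRL (adjusted p = 4e-07) and 0.49 for OVA/Citra against CTRL (adjusted p = 7.09e-05). All 3 calls of Orc2 were kept under all 21 alternative settings. Exons of Orc2 overlap those of Nif3l1 on the opposite strand, which averaged 13.2 ± 0.776 TPM in OVA/Citra, 10.5 ± 0.926 TPM in OVA and 12.2 ± 0.396 TPM in CTRL cells (SD, n = 3 each). The labels do not say whether counting used the strand, and without it reads from the shared stretch cannot be told apart. The same holds for Orc6, Mcm7, Gins2, Pole, Rfc2, Rfc4, Rfc5 and Fen1, so that at least 9 of the 40 genes have such a partner at 1 TPM or more. The genes that overlap exons of Cdc45, Lig1, Pole2 and Rpa1 were not found by symbol, so their levels are not known. Whether reads of overlapping genes had a part in the values was not tested. Orc1, the largest subunit of the complex, had 9.43, 9.98 and 11.2 TPM in OVA/Citra, 11.1, 13.4 and 13.5 TPM in OVA and 10.9, 10.7 and 9.66 TPM in CTRL libraries. OVA was above CTRL in every library, while 1 OVA/Citra library lay within the OVA range. The rise in OVA against CTRL was small (0.26, limma adjusted p = 0.0404). So was the fall in OVA/Citra against OVA, at -0.29 before subtraction (adjusted p = 0.0311) and -0.41 after it. Between OVA/Citra and CTRL cells, Orc1 did not pass (-0.03, 95% interval -0.25 to 0.19, adjusted p = 0.809).

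The Orc1 calls rest on few libraries. For OVA against CTRL the adjusted p from limma was 0.112 without OVA replicate 2, 0.119 without OVA replicate 3, and 0.0515, 0.0681 and 0.125 without CTRL replicate 1, 2 and 3. For OVA/Citra against OVA it was 0.107 and 0.0706 without OVA/Citra replicate 1 and 2, and 0.0919 without either OVA replicate 2 or OVA replicate 3. With no filter on low values it was 0.061 for OVA against CTRL. The subunits Orc3, Orc4 and Orc5, which are not among the 40 genes, were read beside them. Orc4 was higher in OVA than in CTRL cells (log2 change 0.25, adjusted p = 0.0253), Orc5 was lower (-0.69, adjusted p = 0.000902), and Orc3 did not pass (0.12, adjusted p = 0.08).

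Orc6, the smallest subunit, behaved unlike Orc1 and Orc2. Its level was 48.3, 48.3 and 54.0 TPM in OVA/Citra, 39.8, 27.4 and 44.7 TPM in OVA and 48.6, 50.4 and 53.5 TPM in CTRL libraries, so that all OVA libraries were below those of both other groups. The fall in OVA against CTRL was -0.47 (limma adjusted p = 0.0143, 0.0506 without CTRL replicate 3), and OVA/Citra was 0.32 above OVA (adjusted p = 0.0223, 0.0765 without OVA/Citra replicate 3 and 0.0754 with the median of ratios). Orc2 over Orc6 was 0.652 ± 0.0244 in OVA/Citra, 1.28 ± 0.368 in OVA and 0.452 ± 0.0374 in CTRL cells (mean ± SD of the TPM ratio, n = 3 each). The groups did not overlap (exact permutation p = 0.1 for each pair, the smallest possible). This ratio and those below restate the changes of their genes and are no separate evidence for them.

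The licensing factors Cdc6 and Cdt1 fell in OVA cells, Cdt1 by more than any other of the 40 genes. Cdt1, which brings the MCM ring to the origin, had 45.8, 36.8 and 50.7 TPM in OVA/Citra, 32.2, 25.8 and 35.9 TPM in OVA and 107, 95.1 and 95.4 TPM in CTRL libraries. Cdc6, an ATPase that loads the ring with it, had 22.2, 20.5 and 24.0 TPM in OVA/Citra, 17.7, 17.3 and 21.9 TPM in OVA and 32.8, 36.4 and 31.0 TPM in CTRL libraries. In both genes every CTRL library was above every other library, and only for Cdt1 were OVA/Citra and OVA libraries apart. The log2 change in OVA against CTRL was -1.64 for Cdt1 (95% interval -1.94 to -1.35, limma adjusted p = 2.04e-06) and -0.79 for Cdc6 (adjusted p = 5.51e-05). OVA/Citra was 0.37 above OVA for Cdt1 (adjusted p = 0.00931), and 0.10 for Cdc6, which did not pass (95% interval -0.13 to 0.33, adjusted p = 0.0822, 0.0122 without OVA replicate 3). Gmnn, which encodes geminin, the inhibitor of Cdt1, had 99.9, 76.3 and 96.9 TPM in OVA/Citra, 62.9, 57.1 and 69.9 TPM in OVA and 118, 109 and 119 TPM in CTRL libraries. Its 3 groups were apart, with log2 changes of 0.39 in OVA/Citra against OVA (adjusted p = 0.00194) and -0.86 in OVA against CTRL (adjusted p = 3.54e-05).

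The mRNA ratio of the inhibitor to the licensing factor was above that of CTRL libraries in both groups that had peptide. The data are RNA and do not give protein levels. Gmnn over Cdt1 was 2.06 ± 0.135 in OVA/Citra, 2.04 ± 0.150 in OVA and 1.17 ± 0.0718 in CTRL cells (mean ± SD of the TPM ratio, n = 3 each). OVA/Citra and OVA libraries overlapped in this ratio (exact permutation p = 1), and each group was above all CTRL libraries (exact p = 0.1, the smallest possible). Levels in single libraries are drawn in the plot of origin recognition and licensing genes.

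**Figure D3:**
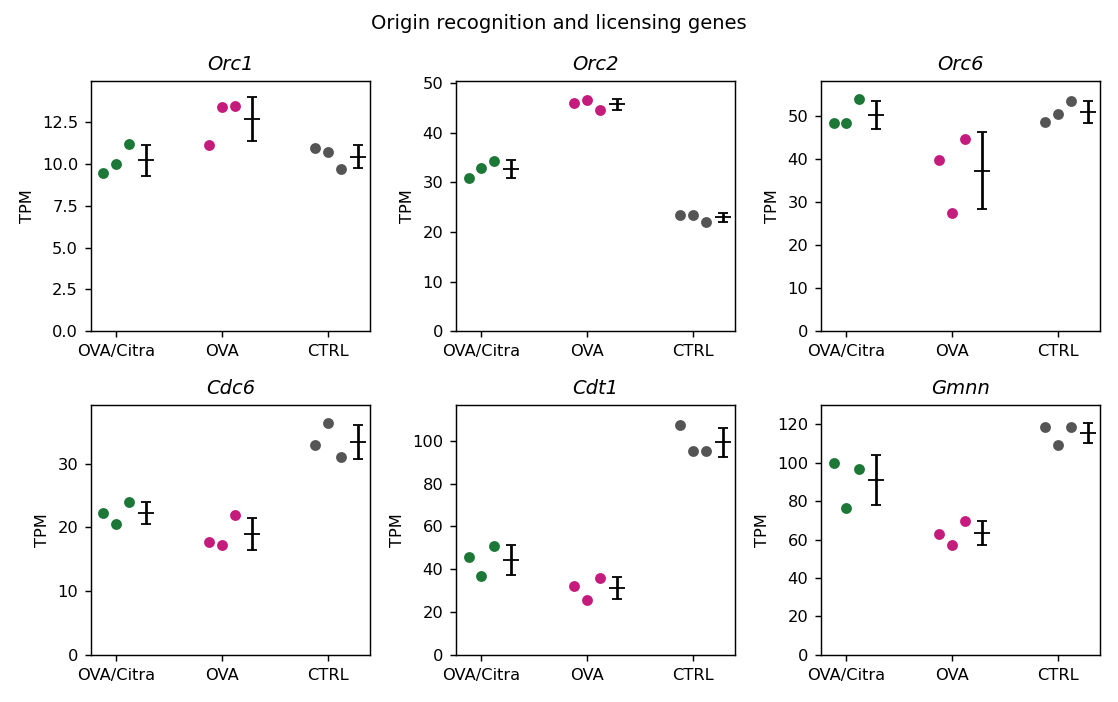
TPM of the 6 origin recognition and licensing genes in each library (points) with the group mean and SD (bars, n = 3), OVA/Citra left, OVA middle, CTRL right, all axes from 0. Orc2 is highest in OVA libraries at 44.6 to 46.6 TPM, whereas Cdt1 is lowest there at 25.8 to 35.9 TPM.

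The 6 genes of the MCM ring were all lower in OVA than in CTRL cells (39.8% of all tested genes were). In OVA/Citra against OVA cells, 5 of 6 were higher (37.8% of all tested genes). Summed over the ring, the level was 1048, 924 and 1104 TPM in OVA/Citra, 759, 680.4 and 880.2 TPM in OVA and 1564, 1439 and 1433 TPM in CTRL libraries. All 3 groups were apart in this sum. Mcm6 had 235, 198 and 235 TPM in OVA/Citra, 149, 128 and 171 TPM in OVA and 306, 279 and 275 TPM in CTRL libraries. Mcm3 had 182, 169.8 and 202 TPM in OVA/Citra, 126, 110.1 and 151 TPM in OVA and 293, 272 and 267 TPM in CTRL libraries. Both genes kept the 3 groups apart in the same order. The log2 change of Mcm6 in OVA/Citra against OVA was 0.45 (95% interval 0.23 to 0.68, limma adjusted p = 0.000874), the largest of the ring, and that of Mcm3 in OVA against CTRL was -1.11 (95% interval -1.34 to -0.87, adjusted p = 6.28e-06), the largest fall of the ring.

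Mcm2 was the only ring gene that did not pass between OVA/Citra and OVA cells. It had 102, 87.7 and 102 TPM in OVA/Citra, 90.5, 88.9 and 103 TPM in OVA and 179.5, 165 and 164 TPM in CTRL libraries. OVA/Citra and OVA libraries overlapped over most of their range, and both groups were below all CTRL libraries. The log2 change of Mcm2 was -0.08 in OVA/Citra against OVA (95% interval -0.25 to 0.09, adjusted p = 0.641) and -0.84 in OVA against CTRL (limma adjusted p = 4.86e-06). Before the median of all genes is taken off, its change in OVA/Citra against OVA was 0.04. Within the ring, Mcm2 over the mean of Mcm3 to Mcm7 was 0.523 ± 0.0158 in OVA/Citra, 0.696 ± 0.0480 in OVA and 0.647 ± 0.00152 in CTRL cells (mean ± SD of the TPM ratio, n = 3 each). The 3 OVA/Citra libraries were below all others in this ratio. The exact permutation p was 0.1 for each pair, the smallest possible. Whether the change of Mcm2 differs from that of the other ring genes was not tested. The ratio comes from the same values as the changes above and is no separate evidence. The highest ring member exceeded the lowest 2.29-fold in OVA/Citra, 1.70-fold in OVA and 1.72-fold in CTRL cells.

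Mcm4, Mcm5 and Mcm7 completed the ring. Mcm4 changed least of the 6 in OVA against CTRL, with 173, 173 and 196 TPM in OVA/Citra, 140.1, 132 and 162 TPM in OVA and 268, 248 and 237 TPM in CTRL libraries. Its log2 changes were 0.20 for OVA/Citra against OVA (limma adjusted p = 0.00793) and -0.79 for OVA against CTRL (adjusted p = 1.29e-05), with the groups apart in both. Mcm5 averaged 193 ± 17.4 TPM in OVA/Citra, 157 ± 18.9 TPM in OVA and 284 ± 13.6 TPM in CTRL cells (SD, n = 3 each). OVA/Citra and OVA libraries overlapped for Mcm5, and its call there (adjusted p = 0.0159) was lost without OVA/Citra replicate 1 (0.056), OVA/Citra replicate 3 (0.0618) or OVA replicate 2 (0.0505) and with the median of ratios (0.0919). Mcm7 averaged 147 ± 21.9 TPM in OVA/Citra, 99.4 ± 17.2 TPM in OVA and 211 ± 9.74 TPM in CTRL cells and passed in every comparison. Exons of Mcm7 overlap Cops6 and Ap4m1 on the opposite strand. Cops6 averaged 106 ± 7.58 TPM in OVA/Citra, 102 ± 3.81 TPM in OVA and 73.5 ± 2.35 TPM in CTRL cells. Ap4m1 averaged 8.56 ± 1.35 TPM in OVA/Citra, 4.67 ± 0.137 TPM in OVA and 10.1 ± 1.14 TPM in CTRL cells, the same order of groups as Mcm7. Whether reads of either gene had a part in the Mcm7 values was not tested.

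Of the 8 genes of origin firing and CMG assembly, 8 fell in OVA against CTRL (39.8% of all tested genes did). Higher in OVA/Citra than in OVA cells were 5 of the 8 (37.8% of all tested genes). CMG is the active helicase, made of Cdc45, the MCM ring and the GINS complex. Cdc7, the catalytic subunit of the kinase that fires origins, had 13.3, 13.1 and 13.3 TPM in OVA/Citra, 7.90, 6.92 and 10.1 TPM in OVA and 20.3, 17.8 and 17.9 TPM in CTRL libraries. Its 3 groups were apart. OVA/Citra was 0.50 above OVA on the log2 scale (95% interval 0.24 to 0.76, limma adjusted p = 0.00119), and OVA was -1.09 against CTRL (adjusted p = 1.48e-05). Its activating subunit Dbf4 changed by less, at 40.7, 34.3 and 38.3 TPM in OVA/Citra, 29.4, 27.9 and 32.1 TPM in OVA and 43.2, 42.6 and 43.3 TPM in CTRL libraries. Dbf4 over Cdc7 was higher in OVA (3.64 ± 0.437) than in CTRL cells (2.32 ± 0.161), and lay in between in OVA/Citra cells (2.86 ± 0.221; SD, n = 3 each), without overlap (exact permutation p = 0.1 for each pair, the smallest possible).

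Cdc45 rose in OVA/Citra against OVA cells. It averaged 79.0 ± 6.72 TPM in OVA/Citra, 51.5 ± 4.15 TPM in OVA and 84.4 ± 2.08 TPM in CTRL cells (SD, n = 3 each), a log2 change of 0.48 in OVA/Citra against OVA (limma adjusted p = 9.69e-05). OVA/Citra and CTRL libraries overlapped, and the change between them did not pass (-0.10, 95% interval -0.26 to 0.07, adjusted p = 0.29). Mcm10, which helps to activate the helicase, had 16.9, 16.5 and 16.2 TPM in OVA/Citra, 14.2, 12.1 and 17.0 TPM in OVA and 22.6, 20.3 and 20.3 TPM in CTRL libraries. OVA replicate 3 lay above all OVA/Citra libraries for Mcm10, and the change in OVA/Citra against OVA did not pass (0.08, 95% interval -0.16 to 0.32, adjusted p = 0.131, 0.0136 without OVA replicate 3). Against CTRL, the fall in OVA passed (-0.53, adjusted p = 0.00124).

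The 4 GINS genes differed in their calls in OVA/Citra against OVA, and whether their changes differ was not tested. Gins1 had 19.0, 12.9 and 14.1 TPM in OVA/Citra, 13.8, 15.6 and 15.6 TPM in OVA and 30.8, 30.3 and 28.0 TPM in CTRL libraries. Of the OVA/Citra libraries, replicate 1 was the highest and replicate 2 lay below all OVA libraries. The change in OVA/Citra against OVA did not pass (-0.11, 95% interval -0.39 to 0.16, limma adjusted p = 0.954), while both groups with peptide were far below CTRL (-0.93 for OVA/Citra, adjusted p = 0.000122, and -0.94 for OVA, adjusted p = 6.46e-05). Gins3 had 10.3, 8.40 and 10.6 TPM in OVA/Citra, 7.41, 5.24 and 7.95 TPM in OVA and 16.6, 15.8 and 16.6 TPM in CTRL libraries. It fell by 1.16 on the log2 scale in OVA against CTRL (adjusted p = 2.91e-05), and OVA/Citra was 0.34 above OVA (adjusted p = 0.0147, 0.0503 and 0.0561 without OVA/Citra replicate 1 and 3, and 0.0898 with quantile normalization). Gins2 had 31.5, 28.8 and 30.8 TPM in OVA/Citra, 25.9, 21.9 and 29.2 TPM in OVA and 32.5, 31.0 and 28.2 TPM in CTRL libraries. Its groups overlapped in every comparison. The fall of Gins2 in OVA against CTRL (-0.25, adjusted p = 0.0424) was lost under 14 of the 21 alternatives, among them leaving out any 1 library other than OVA replicate 3, CTRL replicate 3 or OVA/Citra replicate 2 (adjusted p 0.0546 to 0.15). In OVA/Citra against OVA it did not pass (0.12, 95% interval -0.10 to 0.34, adjusted p = 0.0555, 0.0109 without OVA replicate 3). Gins4 averaged 99.5 ± 4.15 TPM in OVA/Citra, 65.7 ± 5.97 TPM in OVA and 102 ± 6.13 TPM in CTRL cells (SD, n = 3 each), and OVA was apart from both other groups. Gins1 over the mean of Gins2 to Gins4 was 0.328 ± 0.0580 in OVA/Citra, 0.464 ± 0.0692 in OVA and 0.597 ± 0.0282 in CTRL cells, and no 2 groups overlapped. Gins4, the most abundant of the 4, weighs most in this mean, so the ratio says little about Gins2 or Gins3. Gins4 over Gins3 itself was 10.3 ± 0.884 in OVA/Citra, 9.75 ± 1.34 in OVA and 6.28 ± 0.562 in CTRL cells.

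All 4 genes of polymerase alpha-primase were lower in OVA than in CTRL cells (39.8% of all tested genes were). All 4 were also higher in OVA/Citra than in OVA cells (37.8% of all tested genes). Prim1, the subunit that makes the RNA primer, had 43.3, 35.4 and 44.0 TPM in OVA/Citra, 27.3, 19.9 and 27.5 TPM in OVA and 39.5, 41.6 and 37.9 TPM in CTRL libraries. Every OVA library was below every other library, and OVA/Citra and CTRL libraries overlapped. The log2 change was 0.58 in OVA/Citra against OVA (95% interval 0.30 to 0.86, limma adjusted p = 0.000874) and 0.04 in OVA/Citra against CTRL (95% interval -0.24 to 0.32, adjusted p = 0.811). Pola1, the catalytic subunit of the polymerase, had 24.6, 23.4 and 26.0 TPM in OVA/Citra, 17.3, 15.5 and 20.4 TPM in OVA and 35.8, 36.6 and 34.9 TPM in CTRL libraries. Unlike Prim1, Pola1 was lower in every OVA/Citra library than in every CTRL library (-0.52, adjusted p = 0.000705), with -0.98 in OVA against CTRL (adjusted p = 5.17e-06). Prim2, the large primase subunit, changed least, with 39.5, 33.3 and 37.8 TPM in OVA/Citra, 29.3, 27.4 and 32.1 TPM in OVA and 43.9, 40.8 and 39.0 TPM in CTRL libraries. Its rise in OVA/Citra against OVA was 0.18 after subtraction (95% interval -0.003 to 0.37). The call before subtraction (limma adjusted p = 0.00954) was lost with quantile normalization (0.0509). Pola2, the regulatory subunit, averaged 77.2 ± 6.04 TPM in OVA/Citra, 50.0 ± 6.33 TPM in OVA and 82.1 ± 5.87 TPM in CTRL cells (SD, n = 3 each).

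Of the 5 genes of polymerases delta and epsilon, which copy the bulk of both strands, 5 fell in OVA against CTRL (39.8% of all tested genes). Pold1 and Pole were also higher in OVA/Citra than in OVA cells, and the other 3 genes did not pass there. These 2 of 5 are near the 37.8% of all tested genes that were higher. Whether the 5 genes differ in this change was not tested. Pold1, the catalytic subunit of polymerase delta, had 84.8, 68.5 and 83.9 TPM in OVA/Citra, 52.6, 48.6 and 67.0 TPM in OVA and 153, 131 and 139 TPM in CTRL libraries. Pole, that of polymerase epsilon, had 28.9, 25.0 and 28.1 TPM in OVA/Citra, 16.9, 14.4 and 20.3 TPM in OVA and 41.3, 37.9 and 32.1 TPM in CTRL libraries. In both genes the 3 groups were apart, with OVA lowest and CTRL highest. Pold1 changed by -1.33 in OVA against CTRL (95% interval -1.60 to -1.06, limma adjusted p = 4.83e-06), and Pole by 0.53 in OVA/Citra against OVA (95% interval 0.25 to 0.81, adjusted p = 0.00144). Pold2, the second subunit of delta, had 92.4, 78.7 and 89.1 TPM in OVA/Citra, 89.5, 86.9 and 87.5 TPM in OVA and 134, 131 and 129 TPM in CTRL libraries. OVA/Citra libraries lay below, within and above the OVA range, and both groups were below CTRL. The change of Pold2 in OVA/Citra against OVA did not pass before the median was subtracted (-0.02, adjusted p = 0.749), was -0.15 after it (95% interval -0.28 to -0.01), and passed as lower with the median of ratios (-0.16, adjusted p = 0.0328). Pold2 over Pold1 was 1.10 ± 0.0446 in OVA/Citra, 1.60 ± 0.257 in OVA and 0.934 ± 0.0661 in CTRL cells (mean ± SD of the TPM ratio, n = 3 each), with no overlap (exact permutation p = 0.1 for each pair, the smallest possible).

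Pold3, another accessory subunit of delta, changed little. It had 29.1, 28.8 and 30.2 TPM in OVA/Citra, 26.4, 23.0 and 30.5 TPM in OVA and 35.2, 31.5 and 31.0 TPM in CTRL libraries. OVA replicate 3 was above all OVA/Citra libraries, and all CTRL libraries were above the rest. The fall in OVA against CTRL (-0.29, limma adjusted p = 0.0201) was lost without OVA replicate 2 (0.0662) or CTRL replicate 1 (0.0782) and without granzyme genes in the total (0.104). In OVA/Citra against OVA it did not pass (0.02, 95% interval -0.19 to 0.23, adjusted p = 0.217, 0.0312 without OVA replicate 3). Pole2, the second subunit of epsilon, had 31.0, 24.0 and 28.3 TPM in OVA/Citra, 21.0, 22.1 and 26.1 TPM in OVA and 45.6, 44.4 and 41.7 TPM in CTRL libraries. The groups with peptide overlapped, and their difference did not pass (0.13, 95% interval -0.10 to 0.36, adjusted p = 0.0553), although it did without OVA/Citra replicate 2 (0.0117) or OVA replicate 3 (0.0155). Pole2 over Pole was 1.01 ± 0.0597 in OVA/Citra, 1.35 ± 0.159 in OVA and 1.19 ± 0.0992 in CTRL cells (mean ± SD of the TPM ratio, n = 3 each). OVA/Citra was below both other groups in every library, and OVA and CTRL overlapped (exact permutation p = 0.3).

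The sliding clamp gene had the same order of groups as the MCM ring. Pcna, the most abundant of the 40 genes in each group, had 458, 375 and 442 TPM in OVA/Citra, 287, 245 and 298 TPM in OVA and 579, 585 and 571 TPM in CTRL libraries. The 3 groups were apart, with log2 changes of 0.49 for OVA/Citra against OVA (95% interval 0.30 to 0.69, limma adjusted p = 0.0002), -1.07 for OVA against CTRL (adjusted p = 2.06e-06) and -0.45 for OVA/Citra against CTRL (adjusted p = 0.00131). How reads were divided between Pcna and its pseudogene Pcna-ps2, listed at 1.48 to 2.83 TPM in OVA/Citra, 1.22 to 2.36 TPM in OVA and 3.44 to 4.54 TPM in CTRL libraries, is not known.

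Of the 5 genes of replication factor C, which loads the clamp, 4 fell in OVA cells (39.8% of all tested genes did) and Rfc3 did not pass. Rfc4 had 46.3, 41.0 and 45.5 TPM in OVA/Citra, 24.0, 18.9 and 26.7 TPM in OVA and 44.0, 43.5 and 44.2 TPM in CTRL libraries. Every OVA library was far below the others, and OVA/Citra and CTRL libraries overlapped. Its change in OVA/Citra against OVA was the largest of the 40 genes (0.79, 95% interval 0.56 to 1.03, limma adjusted p = 6.93e-05), and OVA/Citra against CTRL did not pass (0.01, 95% interval -0.23 to 0.25, adjusted p = 0.949). Exons of Rfc4 overlap Eif4a2 on the opposite strand, which averaged 91.3 ± 5.35 TPM in OVA/Citra, 83.5 ± 7.49 TPM in OVA and 119 ± 1.66 TPM in CTRL cells (SD, n = 3 each). Rfc3 had 34.8, 28.0 and 35.6 TPM in OVA/Citra, 32.1, 29.4 and 31.0 TPM in OVA and 31.9, 30.5 and 29.6 TPM in CTRL libraries. All groups overlapped, and its change in OVA against CTRL did not pass (0.01, 95% interval -0.19 to 0.21, limma adjusted p = 0.942). The other 4 loader genes changed by -0.57 for Rfc1, -0.28 for Rfc2, -0.91 for Rfc4 and -0.51 for Rfc5. The interval of Rfc2 (-0.46 to -0.11) overlaps that of Rfc3, and whether Rfc3 differs from the other loader genes was not tested. In OVA/Citra against OVA, Rfc3 did not pass either (-0.04, 95% interval -0.24 to 0.15, adjusted p = 0.461, 0.0386 as higher without OVA/Citra replicate 2).

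Rfc3 over the mean of Rfc2, Rfc4 and Rfc5 was 0.713 ± 0.0248 in OVA/Citra, 1.03 ± 0.0972 in OVA and 0.692 ± 0.0233 in CTRL cells (mean ± SD of the TPM ratio, n = 3 each). OVA was above both other groups in every library, and OVA/Citra and CTRL overlapped. Rfc1, the large subunit, averaged 59.5 ± 4.38, Rfc2 46.0 ± 4.01 and Rfc5 47.6 ± 6.58 TPM in OVA/Citra cells, against 43.7 ± 5.47, 34.6 ± 2.85 and 32.6 ± 4.25 TPM in OVA cells, and all 3 passed as higher. Rfc2 shares exonic sequence with Lat2 on the opposite strand, which ran the other way at 58.0 ± 6.94 TPM in OVA/Citra, 139 ± 23.9 TPM in OVA and 17.8 ± 2.38 TPM in CTRL cells. The fall of Rfc2 in OVA against CTRL (adjusted p = 0.00839) was lost without granzyme genes in the total (0.0573).

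All 3 genes of RPA fell in OVA cells (39.8% of all tested genes did) and were higher in OVA/Citra than in OVA cells (37.8%). Rpa1, its large DNA-binding subunit, had 107, 97.6 and 112 TPM in OVA/Citra, 79.3, 77.8 and 92.6 TPM in OVA and 146, 136 and 143 TPM in CTRL libraries. Rpa2 had 58.6, 52.2 and 67.5 TPM in OVA/Citra, 42.0, 34.1 and 44.5 TPM in OVA and 60.8, 54.1 and 62.9 TPM in CTRL libraries. OVA/Citra lay below CTRL in every library for Rpa1 but overlapped it for Rpa2. Accordingly Rpa1 changed by -0.42 in OVA/Citra against CTRL (limma adjusted p = 0.000899), and Rpa2 did not pass (95% interval -0.26 to 0.26, adjusted p = 0.992). The smallest subunit, Rpa3, had 84.4, 61.1 and 87.8 TPM in OVA/Citra, 63.8, 50.6 and 63.1 TPM in OVA and 87.2, 80.7 and 71.3 TPM in CTRL libraries. OVA/Citra replicate 2 lay among the OVA libraries. The change in OVA/Citra against OVA was 0.26 after subtraction (95% interval -0.06 to 0.57), and the call came before it (limma adjusted p = 0.0397). This call was lost under 10 of the 21 alternatives, among them leaving out OVA/Citra replicate 1 (0.129) or 3 (0.144), OVA replicate 2 (0.127) or CTRL replicate 2 (0.0552). For OVA against CTRL, Rpa3 fell (adjusted p = 0.0192), but did not pass without OVA replicate 2 (0.0634), CTRL replicate 1 (0.0725) or CTRL replicate 2 (0.0515).

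Both genes of Okazaki fragment joining fell in OVA cells (39.8% of all tested genes did). They were higher in OVA/Citra than in OVA cells (37.8% of all tested genes). Lig1, the ligase that seals nicks, had 109, 104 and 115 TPM in OVA/Citra, 76.1, 66.9 and 89.7 TPM in OVA and 174, 161 and 156 TPM in CTRL libraries. Fen1, the nuclease that removes primer flaps, had 112, 99.2 and 114 TPM in OVA/Citra, 70.6, 70.5 and 84.4 TPM in OVA and 105, 97.4 and 107 TPM in CTRL libraries. Lig1 kept the 3 groups apart, whereas OVA/Citra and CTRL libraries overlapped for Fen1. The log2 change in OVA/Citra against OVA was 0.38 for Lig1 (limma adjusted p = 0.00119) and 0.40 for Fen1 (adjusted p = 0.000387). In OVA/Citra against CTRL it was -0.57 for Lig1 (adjusted p = 0.000471) and 0.07 for Fen1, which did not pass (95% interval -0.11 to 0.25, adjusted p = 0.481). That the 2 genes differ in this change was not tested.

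**Figure D4:**
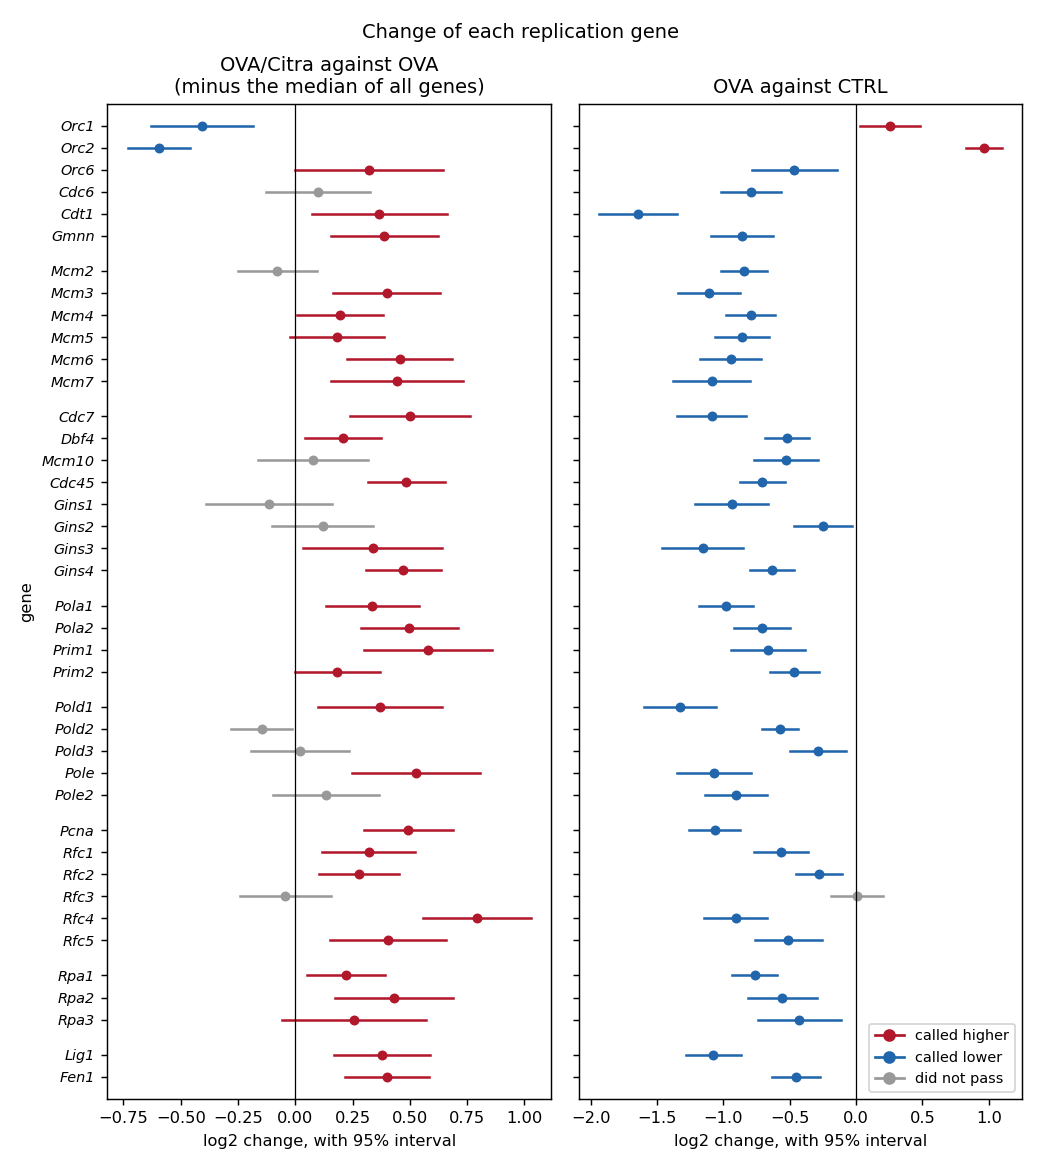
Log2 change of each replication gene with its 95% interval (limma), for OVA/Citra against OVA after subtracting the median of all genes (left) and for OVA against CTRL (right); colour gives the call made before subtraction, so that intervals of called genes on the left can reach 0. Orc1 and Orc2 stand alone on the side opposite to the other called genes in both panels.

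Set against CTRL cells, OVA/Citra cells had different shares of lower genes by role, and whether the roles differ was not tested. All 6 ring genes were lower in OVA/Citra than in CTRL cells, with log2 changes from -0.80 for Mcm2 to -0.37 for Mcm6, as were 4 of the 5 genes of polymerases delta and epsilon, 4 of the 8 of origin firing and CMG assembly and 3 of the 6 licensing genes. In the other roles, 1 of 2 Okazaki fragment genes (Lig1), 1 of 6 clamp and loader genes (Pcna), 1 of 3 RPA genes (Rpa1) and 1 of 4 polymerase alpha-primase genes (Pola1) were lower, where 26.3% of all tested genes were. By groups that did not overlap, 23 of the 40 genes were lower in every OVA/Citra library and 1, Orc2, was higher, beside 67.4% of all tested genes, 30.1% lower and 37.3% higher. The lowest change was that of Cdt1 (-1.15, 95% interval -1.45 to -0.86, limma adjusted p = 4.54e-05), followed by Gins1 and Pold1 (-0.83, adjusted p = 0.000222). Leaving out 1 library ended the call of Mcm10 (adjusted p 0.0518 and 0.0636 without OVA/Citra replicate 2 and 3, 0.0819 without CTRL replicate 1), of Pole (0.0538 without OVA/Citra replicate 2, 0.0611 without CTRL replicate 1) and of Gmnn (0.0514 without CTRL replicate 3). Dbf4, at -0.19 (adjusted p = 0.0512), passed as lower under 10 of the 21 alternatives, among them the median of ratios (0.0114). In the other comparisons, libraries did not overlap for 27 genes higher and 1 lower in OVA/Citra than in OVA cells (66.1% of all tested genes, 41.9% higher and 24.2% lower), and for 2 higher and 36 lower in OVA than in CTRL cells (75.0%, 33.7% higher and 41.3% lower).

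**Figure D5:**
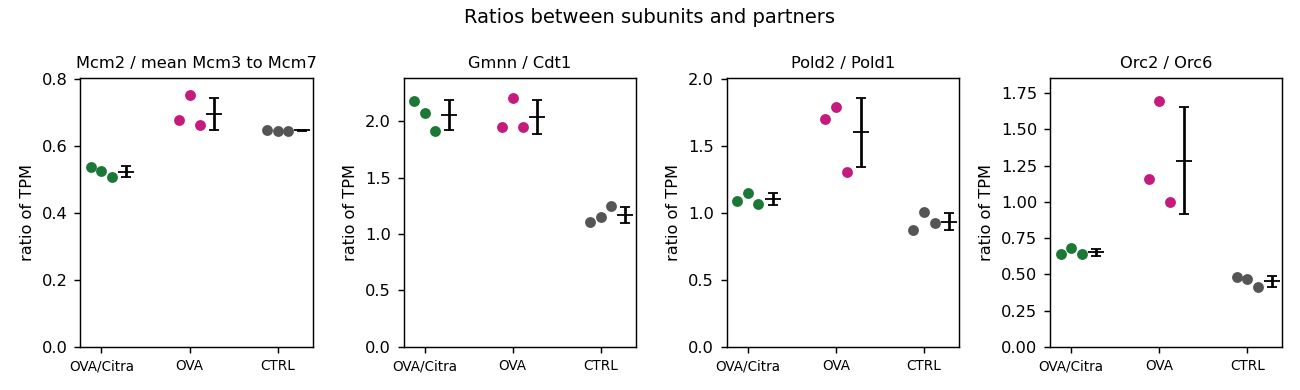
TPM ratios Mcm2 to the mean of Mcm3 to Mcm7, Gmnn to Cdt1, Pold2 to Pold1 and Orc2 to Orc6 in each library (points) with the group mean and SD (bars, n = 3), OVA/Citra left, OVA middle, CTRL right, all axes from 0. Mcm2 over the other ring genes is lowest in OVA/Citra cells, at 0.523, and Gmnn over Cdt1 is near 2.06 in OVA/Citra and 2.04 in OVA cells against 1.17 in CTRL cells.

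Genes around the core machinery were read from fixed lists. Of all tested genes, 37.8% were higher and 21.2% lower in OVA/Citra against OVA. The shares were 32.1% and 39.8% in OVA against CTRL, and 33.1% and 26.3% in OVA/Citra against CTRL. Whether a list differs from these shares was not tested. Of 37 other replication factors (fork stabilisers, checkpoint partners, topoisomerases and chromatin assembly factors), 23 were higher and 0 lower in OVA/Citra than in OVA cells, 4 were higher and 28 lower in OVA than in CTRL cells, and 4 were higher and 17 lower in OVA/Citra than in CTRL cells. Top2a, the topoisomerase that untangles sister DNA, averaged 194 ± 18.1 TPM in OVA/Citra, 101 ± 14.3 TPM in OVA and 302 ± 23.9 TPM in CTRL cells (SD, n = 3 each; limma adjusted p = 5.68e-05 for OVA/Citra against OVA). Asf1b, a histone chaperone, averaged 77.3 ± 11.0 TPM in OVA/Citra, 43.4 ± 5.33 TPM in OVA and 119.7 ± 5.68 TPM in CTRL cells (adjusted p = 0.000173). Rnaseh2c, a subunit of the nuclease that removes ribonucleotides from DNA, averaged 109 ± 4.62 TPM in OVA/Citra, 76.8 ± 0.979 TPM in OVA and 107 ± 4.55 TPM in CTRL cells (adjusted p = 3.53e-05 for OVA/Citra against OVA and 0.572 against CTRL). The 12 genes of deoxynucleotide supply were split, with 6 higher and 3 lower in OVA/Citra than in OVA cells, 2 higher and 9 lower in OVA than in CTRL cells, and 0 higher and 4 lower in OVA/Citra than in CTRL cells. Rrm1, the large subunit of ribonucleotide reductase, averaged 196 ± 17.4 TPM in OVA/Citra, 125 ± 19.2 TPM in OVA and 193 ± 3.98 TPM in CTRL cells (adjusted p = 0.000422 for OVA/Citra against OVA). Samhd1, which breaks down deoxynucleotides, moved in the same direction as Rrm1, at 59.7 ± 4.94 TPM in OVA/Citra, 23.9 ± 3.91 TPM in OVA and 143 ± 2.98 TPM in CTRL cells (adjusted p = 1.32e-05). Nme1, a nucleoside diphosphate kinase, went the other way, at 50.3 ± 3.55 TPM in OVA/Citra, 88.7 ± 1.58 TPM in OVA and 46.4 ± 1.44 TPM in CTRL cells (adjusted p = 8.38e-06).

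Mitosis genes and the E2F family were read in the same way. The shares of all tested genes were again 37.8% higher and 21.2% lower in OVA/Citra against OVA. They were 32.1% and 39.8% in OVA against CTRL, and 33.1% and 26.3% in OVA/Citra against CTRL. Of 20 mitosis genes, 20 were higher in OVA/Citra than in OVA cells, 20 were lower in OVA than in CTRL cells and 16 were lower in OVA/Citra than in CTRL cells. The median log2 change of the mitosis genes was 0.57 for OVA/Citra against OVA after subtraction and -1.27 for OVA against CTRL. The 40 replication genes had 0.33 and -0.74. Whether these medians differ was not tested. Kif11, a spindle motor, averaged 101 ± 13.6 TPM in OVA/Citra, 49.7 ± 7.66 TPM in OVA and 134 ± 6.47 TPM in CTRL cells (SD, n = 3 each; limma adjusted p = 6.61e-05 for OVA/Citra against OVA). Ccnb2, a mitotic cyclin, averaged 163 ± 18.9 TPM in OVA/Citra, 85.5 ± 12.6 TPM in OVA and 298 ± 16.1 TPM in CTRL cells (adjusted p = 8.86e-05), and Kif23, a motor of cytokinesis, 51.7 ± 2.63, 27.5 ± 4.98 and 94.0 ± 3.02 TPM in the same order (adjusted p = 6.7e-05). Of 13 genes of the E2F and Rb families, 9 were higher and 3 lower in OVA/Citra than in OVA cells, 3 were higher and 8 lower in OVA than in CTRL cells, and 4 were higher and 6 lower in OVA/Citra than in CTRL cells. E2f2, an activating factor of the family, averaged 33.6 ± 5.43 TPM in OVA/Citra, 11.3 ± 4.20 TPM in OVA and 97.0 ± 4.21 TPM in CTRL cells, a log2 change of 1.42 in OVA/Citra against OVA (adjusted p = 0.000195) and -3.06 in OVA against CTRL (adjusted p = 8.21e-07). E2f7, a repressor of the family, averaged 6.27 ± 0.831 TPM in OVA/Citra, 2.58 ± 0.311 TPM in OVA and 8.37 ± 0.895 TPM in CTRL cells (adjusted p = 8.56e-05 for OVA/Citra against OVA). Tfdp2, a partner of E2F proteins, was highest in OVA/Citra cells, at 16.0 ± 1.84 TPM, against 4.96 ± 1.56 TPM in OVA and 9.50 ± 0.626 TPM in CTRL cells (adjusted p = 5.23e-05 against OVA and 0.00522 against CTRL).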

How the data were processed

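RNA-seq of 9 mouse CD8+ T cell libraries was given as 1 table of 48709 genes. The values are in TPM, as the authors deposited them: although FPKM stands in the table's name, every library adds up to 1000000. Salmon, Trim Galore 0.5.0 and build GRCm39 are listed, per the submitters' processing notes. Salmon estimates counts, and whole reads per gene were recovered from the TPM steps for 16734 of 16734 genes (100%, within 7.63e-05 reads). These are the genes above 0 in 2 or more libraries, out of 18347 above 0 in any library. Recovered reads came to 14754470 to 17384330 per library, over 14537 to 15111 genes above 0.

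The test was limma 3.58.1 (R 4.3.3, trended empirical Bayes) on log2(TPM + 1), so that fold changes of low genes are understated. All 3 groups entered 1 fit. The 11971 genes whose mean reached 1 TPM in some group were tested, with Benjamini-Hochberg adjustment over all of them and a threshold of 0.05. The main fit used no count model, because the deposited values are TPM. The recovered reads entered only an alternative fit with voom. Intervals are 95% and do not allow for multiple tests. Single ratios were compared by two-sided exact permutation tests (SciPy 1.17.1, Python 3.11.15, numpy 2.4.6, pandas 2.3.3, matplotlib 3.10.9 for plots). The ratios were not named in advance. Several set a gene that did not pass beside genes that did, so their p-values add no separate support.

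Values in every library are given by a rule: in each of 8 roles, the gene with the largest and the gene with the smallest absolute change in OVA/Citra against OVA and in OVA against CTRL, every gene that did not pass and every gene against the common direction. Orc6, Dbf4 and others beyond the rule were chosen after their values were seen. Up to 3 genes per other list are named, those with the smallest adjusted p. Orc3 to Orc5 and the marker genes were named beyond that rule. The members and the 13 lists were chosen with earlier results of these data known. Lists of 184 entries had 182 in the table. The fit was repeated under 20 other settings and 1 more added after the data were seen: another pseudocount, filter or scaling, granzyme genes left out, the recovered reads with voom, the 2 groups compared alone, no variance trend, a replicate block, and each library left out. Promoters are from RefSeq (GRCm38.p6), matched by symbol, and exon overlaps from GENCODE M21 on GRCm38, used only for which genes share exons.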

Additional observations from a re-analysis of the deposited data

How the results depend on the processing

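Over the 21 alternatives, 25 of the 40 replication genes kept their direction and call in OVA/Citra against OVA, 33 in OVA against CTRL and 24 in OVA/Citra against CTRL. The number called higher ran from 25 to 34 and the number called lower from 1 to 3 in OVA/Citra against OVA, from 1 to 2 and from 33 to 37 in OVA against CTRL, and from 1 to 3 and from 19 to 23 in OVA/Citra against CTRL. Leaving out libraries, genes called lower in OVA/Citra than in OVA numbered 1 to 2 (1 without OVA/Citra replicate 1 or 2 or OVA replicate 2 or 3), genes called higher in OVA than in CTRL 1 to 2 (1 without OVA replicate 2 or 3 or any CTRL replicate), and genes called higher in OVA/Citra than in CTRL 1 to 3 (2 without OVA/Citra replicate 2). With no filter on low values, 1 gene was called higher in OVA than in CTRL cells. The cause was not tested.

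The changes that turned sign were those near 0, before the median of all genes is taken off, and none of them was called. With the median of ratios, OVA/Citra against OVA gave -0.118 for Gins1, -0.0520 for Rfc3 and -0.0897 for Mcm2, and OVA/Citra against CTRL gave -0.0283 for Rfc5, -0.00586 for Prim1 and -0.0345 for Rfc4. With quantile normalization it was -0.129 for Gins1 and -0.0429 for Rfc3 against OVA, and -0.0281 for Rfc5, -1.94e-06 for Prim1 and -0.0284 for Rfc4 against CTRL. Without granzyme genes it was -0.0593 for Gins1 and -0.0277 for Mcm2 against OVA, and 0.00758 for Orc1, 0.0390 for Rpa2, 0.00124 for Gins4, 0.0204 for Orc6 and 0.0342 for Gins2 against CTRL. From the recovered reads with voom it was -0.0143 for Gins1 against OVA, and 0.0206 for Rpa2 and 0.0185 for Gins2 against CTRL. Leaving out libraries, OVA/Citra against OVA ran from -0.146 to 0.144 for Gins1 and from -0.0709 to 0.0435 for Pold2, and OVA against CTRL ran from -0.0209 to 0.0408 for Rfc3. OVA/Citra against CTRL ran from -0.0933 to 0.0200 for Orc1, from -0.0959 to 0.0868 for Rpa2, from -0.0524 to 0.133 for Rfc5, from -0.143 to 0.114 for Rpa3, from -0.0727 to 0.00779 for Gins4, from -0.0730 to 0.0164 for Orc6, from -0.0611 to 0.0389 for Gins2, from -0.0173 to 0.136 for Prim1 and from -0.0244 to 0.0621 for Rfc4. The cause was not tested.

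The groups share replicate numbers, but nothing in the labels pairs them. Same-numbered libraries had correlations of their deviations from the group means of -0.012 to 0.304, and 4 of 9 libraries correlated best with their own number. With the replicate number as a block, 29 genes were higher and 2 lower in OVA/Citra than in OVA, 2 higher and 37 lower in OVA than in CTRL, and 1 higher and 22 lower in OVA/Citra than in CTRL cells. The added gene was Dbf4 (limma adjusted p = 0.0397).

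Groups of 3 allow no check for outlying libraries. The lowest read number behind any single value was 91, and counting error was not carried into the intervals except with voom. Whether depth limited the calls was not tested. With 2 E2F words in place of 4, the share of genes with a word was 37.5%, and with all 4 words before the start alone it was 25.0%.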

Other observations

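Regulators of entry into the cell cycle and repair polymerases were not described above. Of 18 genes of G1 cyclins, kinases and inhibitors, 10 were higher and 4 lower in OVA/Citra than in OVA cells, 4 higher and 10 lower in OVA than in CTRL cells, and 5 higher and 5 lower in OVA/Citra than in CTRL cells (limma, adjusted p under 0.05). The shares of all tested genes were 37.8% higher and 21.2% lower in OVA/Citra against OVA, 32.1% and 39.8% in OVA against CTRL, and 33.1% and 26.3% in OVA/Citra against CTRL. Btg1 and Btg2, which are known to restrain proliferation, were highest in OVA/Citra cells. Btg2 averaged 68.6 ± 10.1 TPM in OVA/Citra, 16.5 ± 1.94 TPM in OVA and 37.3 ± 3.04 TPM in CTRL cells (SD, n = 3 each; adjusted p = 5.32e-06 for OVA/Citra against OVA and 0.00015 against CTRL). Btg1 averaged 270.5 ± 14.5 TPM in OVA/Citra, 117 ± 12.7 TPM in OVA and 115 ± 14.2 TPM in CTRL cells (adjusted p = 1.25e-05 and 3.74e-06). Cdkn2d, an inhibitor of the G1 kinases, averaged 91.2 ± 11.9 TPM in OVA/Citra, 41.9 ± 4.87 TPM in OVA and 148 ± 4.27 TPM in CTRL cells (adjusted p = 2.19e-05 and 0.000212).

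Of 13 tested polymerases and partners of repair and translesion synthesis, 5 were higher and 2 lower in OVA/Citra than in OVA cells, 2 higher and 9 lower in OVA than in CTRL cells, and 1 higher and 4 lower in OVA/Citra than in CTRL cells. Whether either list differs from the other genes was not tested. Rev1, a scaffold of translesion synthesis, averaged 6.75 ± 0.0800 TPM in OVA/Citra, 4.02 ± 0.185 TPM in OVA and 5.96 ± 0.562 TPM in CTRL cells (SD, n = 3 each; limma adjusted p = 0.000299 for OVA/Citra against OVA). Poli, a translesion polymerase, averaged 10.7 ± 0.822 TPM in OVA/Citra, 7.47 ± 0.412 TPM in OVA and 18.6 ± 0.328 TPM in CTRL cells (adjusted p = 0.000659). Polm, a polymerase of end joining, averaged 12.7 ± 1.56 TPM in OVA/Citra, 7.37 ± 1.17 TPM in OVA and 13.6 ± 0.751 TPM in CTRL cells (adjusted p = 0.000607).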
